A study of Homo sapiens with 3 samples.

Results

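The 31 genes described here encode the enzymes that make cholesterol and fatty acids, and the regulators of the sterol regulatory element binding proteins (SREBPs). They were taken by symbol from a list of these pathways, and each had a row among the 34520 of the deposited table. They fall into 18 sterol enzymes, 6 SREBP regulators and 7 fatty acid enzymes. The cells were SK-N-BE(2), a long-established line from a human neuroblastoma, a childhood tumour of the sympathetic nervous system, grown in serum. There were 3 groups of 1 library each, namely control cells and cells given arsenic trioxide (ATO) for 12 h at 2 µM or at 4 µM. The labels name no vehicle for the control, and the series presents ATO as an inhibitor of the interaction of N-Myc with DNA. With 1 library per group no value has a replicate check, so no SD, SE or p-value is given, and a difference between libraries may be one between single cultures.

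Cholesterol is built from acetyl-CoA through mevalonate, isoprenoids, squalene and lanosterol. The SREBPs are transcription factors made as membrane precursors. SCAP carries them from the endoplasmic reticulum to the Golgi, where proteases release the active part, and INSIG proteins hold SCAP back when sterol is plentiful. SREBP2, from SREBF2, acts mostly on sterol genes and SREBP1, from SREBF1, mostly on fatty acid genes. Growing tumour cells use both pathways to build membranes.

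Values are FPKM, fragments scaled to transcript length and library size, so levels of different genes can be set side by side. A log2 fold is that of FPKM + 1, and the added 1 makes the folds of low genes too small. Only rows averaging 1 FPKM or more were considered, 12433 in all and 30 of the 31 genes, since TM7SF2 lay below. The size rule asked for a log2 fold of 1 or more in either direction, and a smaller step of 0.5 was counted as well. The number of rows at 1 FPKM or more lay between 12149 and 12606, and FPKM summed to between 246878 and 262632 per library. Whole reads could not be recovered from the spacing of low values, so the depth is unknown and no counting interval can be given. Of the adrenergic neuroblastoma markers, 10 of 10 were considered, with summed levels of 393 FPKM in control, 262 FPKM at 2 µM and 131 FPKM at 4 µM. Rows were found for 4 of 6 listed markers of steroid-producing adrenal cortex, 4 of 6 of hepatocytes, 3 of 5 of adipocytes and 4 of 5 of leukocytes, and reached at most 0.844 FPKM (CD14, a monocyte marker, at 2 µM).

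The promoters of the genes at the extremes of the results are shown as a reference for the values that follow. Each line gives the 200 bases before the start in the RefSeq table of GRCh38.p14, 5′ to 3′ on the strand of the gene. DHCR7, INSIG2 and ACLY have 2 starts each there, and only the first listed is shown. Capitals mark 3 kinds of letters searched on both strands, namely CACGTG, the E-box that N-Myc with MAX and also SREBPs can bind, TCACNCCAC, a sterol element, and CCAAT, the box bound by NF-Y, a known partner of SREBPs. SCAP and DHCR7 had the lowest log2 folds at 4 µM, MSMO1 stands for the enzymes that were highest at 2 µM, INSIG1 differed little between libraries, INSIG2 and ACLY were higher with ATO, and SREBF2 held the sterol element.
SCAP, chr3:47475942-47476141, minus strand: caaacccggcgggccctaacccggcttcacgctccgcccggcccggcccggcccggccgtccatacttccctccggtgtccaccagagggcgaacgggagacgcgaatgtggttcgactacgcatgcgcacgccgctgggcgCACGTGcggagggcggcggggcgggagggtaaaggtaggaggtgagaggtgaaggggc
DHCR7, chr11:71448394-71448593, minus strand: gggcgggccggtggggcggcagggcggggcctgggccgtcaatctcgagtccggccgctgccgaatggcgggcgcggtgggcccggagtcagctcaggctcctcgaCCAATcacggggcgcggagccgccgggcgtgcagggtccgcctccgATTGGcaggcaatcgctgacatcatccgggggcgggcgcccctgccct
MSMO1, chr4:165327469-165327668, plus strand: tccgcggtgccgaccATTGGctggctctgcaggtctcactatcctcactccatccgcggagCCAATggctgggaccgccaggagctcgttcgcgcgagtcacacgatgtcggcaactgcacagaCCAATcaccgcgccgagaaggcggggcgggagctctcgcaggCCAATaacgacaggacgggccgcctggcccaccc
INSIG1, chr7:155297678-155297877, plus strand: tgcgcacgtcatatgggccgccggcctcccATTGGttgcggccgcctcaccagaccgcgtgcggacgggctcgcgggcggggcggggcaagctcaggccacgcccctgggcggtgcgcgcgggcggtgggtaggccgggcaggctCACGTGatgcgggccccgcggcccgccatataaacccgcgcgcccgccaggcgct
INSIG2, chr2:118088271-118088470, plus strand: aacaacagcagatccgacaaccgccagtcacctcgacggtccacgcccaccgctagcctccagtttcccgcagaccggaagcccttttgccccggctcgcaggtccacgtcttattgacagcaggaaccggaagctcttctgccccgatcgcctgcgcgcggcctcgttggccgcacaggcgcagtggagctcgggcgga
ACLY, chr17:41919023-41919222, minus strand: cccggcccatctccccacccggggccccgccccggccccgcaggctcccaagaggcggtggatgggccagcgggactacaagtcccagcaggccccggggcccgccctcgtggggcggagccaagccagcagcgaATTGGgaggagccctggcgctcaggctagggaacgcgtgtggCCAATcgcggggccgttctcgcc
SREBF2, chr22:41832905-41833104, plus strand: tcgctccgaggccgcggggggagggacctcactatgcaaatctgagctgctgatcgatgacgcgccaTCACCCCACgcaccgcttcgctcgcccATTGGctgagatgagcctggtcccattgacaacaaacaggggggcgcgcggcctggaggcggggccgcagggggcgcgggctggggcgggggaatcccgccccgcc

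SCAP and INSIG1 each held an E-box close to the start, 58 and 55 bases upstream, and had log2 folds at 4 µM of -1.28 and -0.07. MSMO1 held 4 CCAAT boxes in the stretch shown and DHCR7 held 2, whereas the INSIG2 stretch held none of the 3 motifs. SREBF2 held TCACCCCAC 133 bases upstream and a CCAAT box 106 bases upstream.

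Promoter windows of 250 bases before to 50 after the start were found for 27 of the 31 genes, 37 windows in all. ACAT2, FDFT1, SQLE and FASN had none. The CCAAT box lay in at least 1 window of 20 of the 27 genes, 74.1%, against 39.7% of all 27305 genes in the table and 44.0% of the 9132 that matched a considered row. Among sterol enzymes it was 13 of 15. The E-box lay in 4 of the 27 genes (SCAP, INSIG1, LSS and SC5D), 14.8%, against 8.77% of all genes and 12.9% of those with a considered row. The sterol element TCACNCCAC was found in SREBF2 alone among the 27, against 1.39% of all genes. GC boxes, GGGCGG, lay in 26 of the 27, against 48.3% of all genes and 78.3% of those with a considered row. These are matches of letters in a short window and do not show binding.

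In the control the fatty acid enzymes held the top of the set. ACLY, which makes cytosolic acetyl-CoA from citrate for both pathways, had 104 FPKM, SCD, the desaturase that makes oleate, had 73.7 FPKM and FASN, the fatty acid synthase, had 67.2 FPKM. FDFT1, the squalene synthase, led the sterol enzymes at 49.6 FPKM, and SREBF2 led the regulators at 37.9 FPKM. The low end was made up of TM7SF2 (1.26 FPKM), HSD17B7 (1.43 FPKM), SREBF1 (3.19 FPKM) and MVK (3.45 FPKM). At 4 µM ACLY was at 122 FPKM and SCD at 52.4 FPKM, while FASN (30.1 FPKM) was level with FDFT1 (30.003 FPKM).

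**Figure D1:**
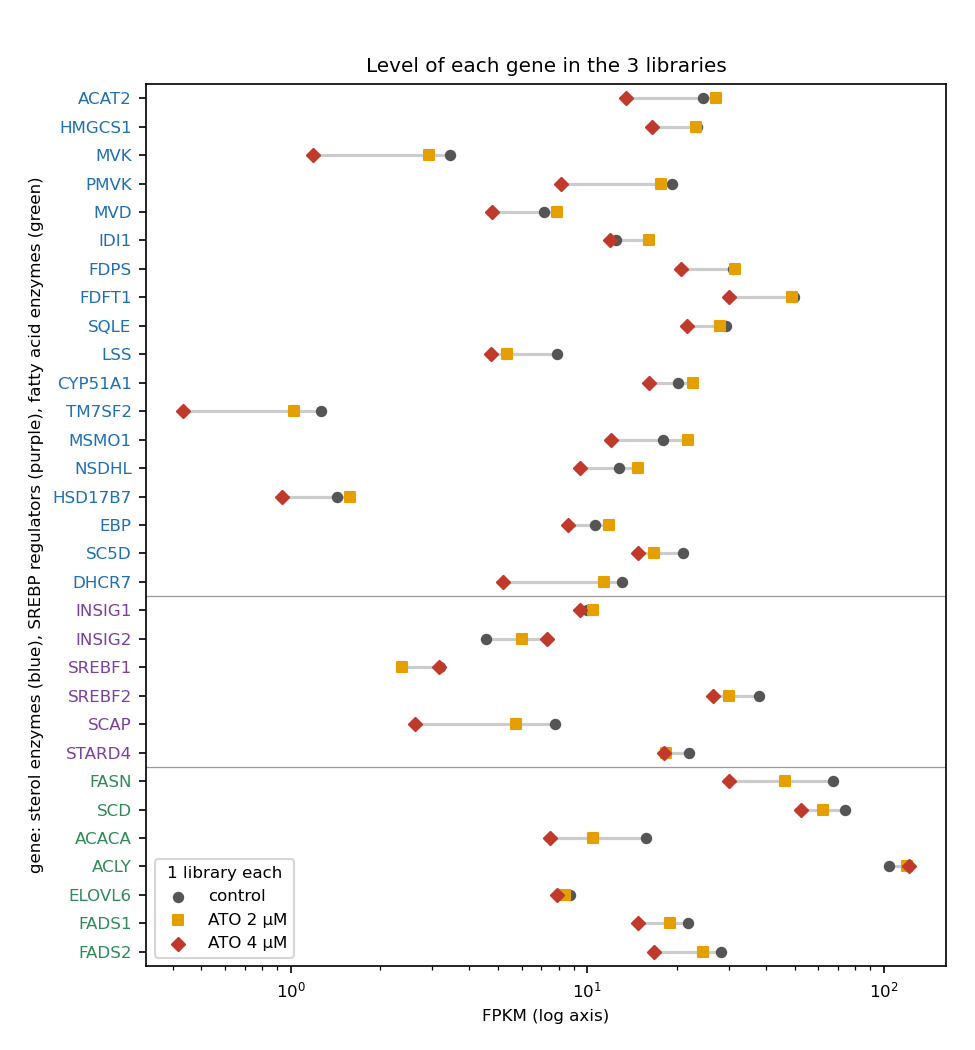
FPKM (log axis) of the 31 genes in the control, ATO 2 µM and ATO 4 µM libraries, 1 point per library, with genes in pathway order inside each group. The 4 µM point is the lowest of the 3 for 28 genes, and for INSIG2 and ACLY it is the highest.

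At 4 µM against control the set was mostly lower, and the median was close in sterol and fatty acid enzymes. Of the 30 considered genes 28 had a log2 fold below 0, against 59.9% of all considered rows, and the median was -0.49, against -0.13 for all rows. By the size rule 5 were lower, which were SCAP (-1.28), DHCR7 (-1.19), PMVK (-1.14), FASN (-1.13) and MVK (-1.02), against 5.27% of all rows. None was higher, against 4.19%. At the smaller step 13 of 30 were lower, against 22.1% of all rows, and INSIG2 was the 1 gene higher, against 13.0%.

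The medians of the groups were -0.49 for 17 sterol enzymes, -0.53 for 7 fatty acid enzymes and -0.17 for 6 regulators. That 28 genes were below 0 depends on the scaling, since median-of-ratios scaling, which moves the median of all rows to -0.0033, left 24 below 0 and put IDI1, INSIG1, SREBF1 and ELOVL6 above it beside INSIG2 and ACLY. Over all rows that scaling left 716 higher and 475 lower by the size rule, against 521 and 655 as deposited. Under it PMVK (-1.001), DHCR7 and SCAP passed the size rule, and FASN (-0.98) and MVK (-0.93) did not. Each of the 17 considered sterol enzymes was below 0 as deposited, and 16 were so after that scaling, IDI1 being the exception.

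**Figure D2:**
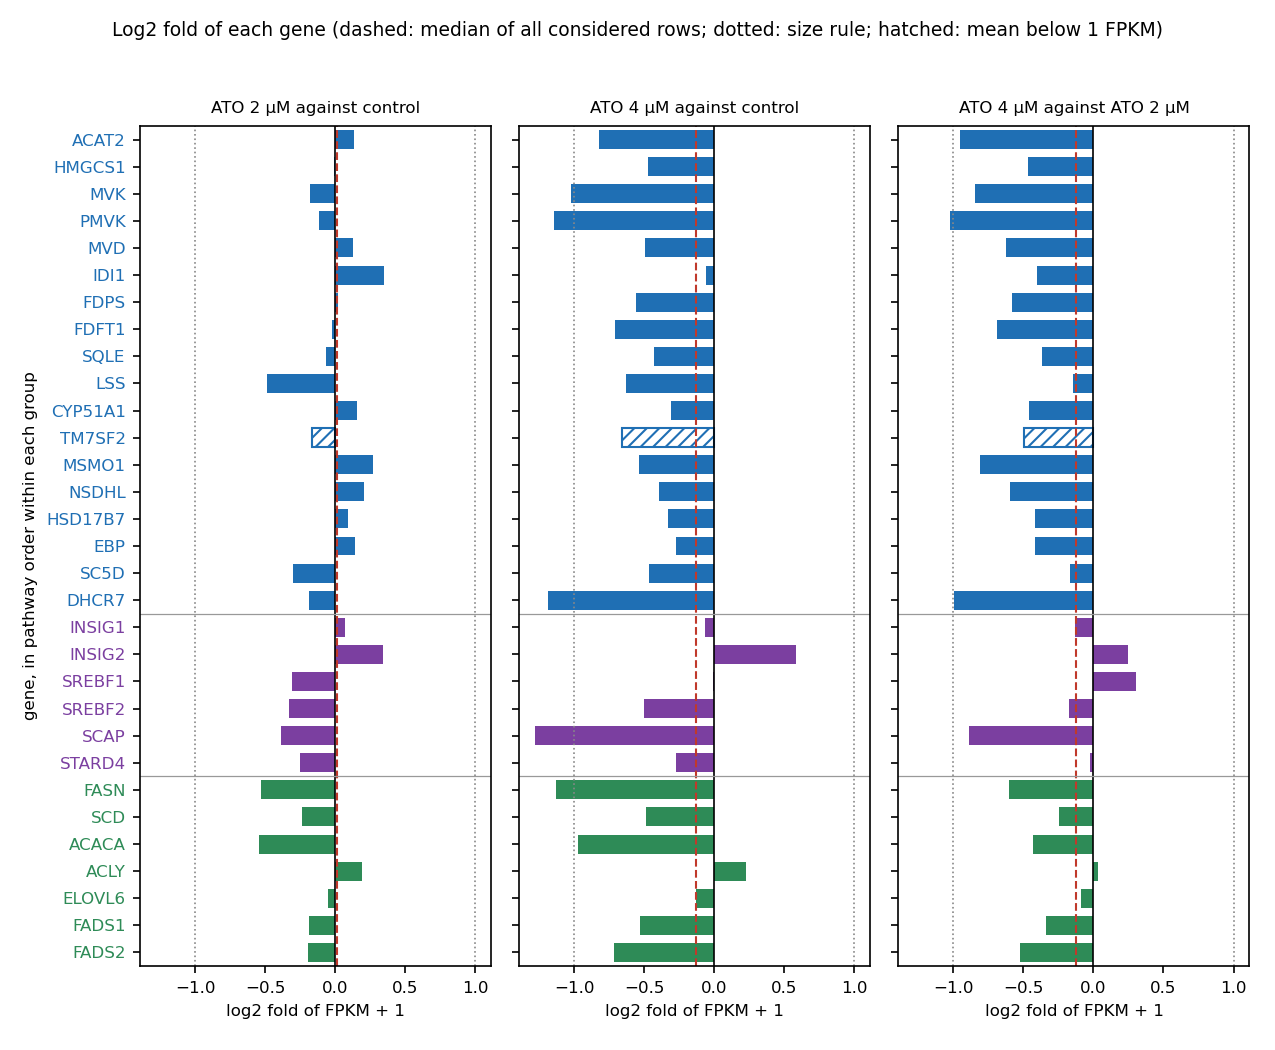
Log2 fold of FPKM + 1 for each gene in 3 comparisons, with sterol enzymes in blue, regulators in purple and fatty acid enzymes in green. The dashed line is the median of all considered rows, dotted lines mark the size rule, and the hatched bar is TM7SF2, whose mean was below 1 FPKM. Most sterol enzymes lie near 0 in the first panel and left of the dashed line in the other 2.

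At 2 µM against control the sterol enzymes lay around 0 and most other genes below it. No gene of the set passed the size rule in either direction, against 1.16% of all rows higher and 0.901% lower. Sterol enzymes were split, 9 above and 8 below 0, with a median of 0.02 that was -0.018 with upper quartile scaling, -0.029 as TPM and -0.052 after the GC and length correction, against a median of 0.01 and 48.4% below 0 for all rows. Fatty acid enzymes and regulators had medians of -0.19 and -0.28 and 6 of 7 and 4 of 6 below 0. At the smaller step ACACA (-0.55) and FASN (-0.53) were lower, 2 of 30 against 6.04% of all rows, and none was higher, against 6.52%.

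Setting 4 µM against 2 µM, the sterol enzymes had a median of -0.58 and 17 of 17 below 0, against a median of -0.12 and 63.0% below 0 for all rows. The median was -0.34 for fatty acid enzymes and -0.08 for regulators. PMVK (-1.02) was the 1 gene lower by the size rule, against 1.34% of all rows, and DHCR7 just missed it at -0.998. None was higher, against 1.14%. At the smaller step 12 of 30 were lower, 9 of them sterol enzymes, against 14.3% of all rows, and none was higher, against 6.39%. The 3 comparisons share libraries, among them the control, so their values are not independent.

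The order of the libraries was also counted. In 9 of 17 sterol enzymes the 2 µM library was the highest and the 4 µM library the lowest, an order seen in 18.8% of all considered rows. These were ACAT2, MVD, IDI1, FDPS, CYP51A1, MSMO1, NSDHL, HSD17B7 and EBP. INSIG1 had the same order, and no fatty acid enzyme did. The other 8 sterol enzymes, 6 of 7 fatty acid enzymes and 3 of 6 regulators were lower at each dose, an order seen in 34.2% of rows. An order counts differences of any size, and that of FDPS rested on 31.4 FPKM at 2 µM against 30.97 FPKM in control.

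**Figure D3:**
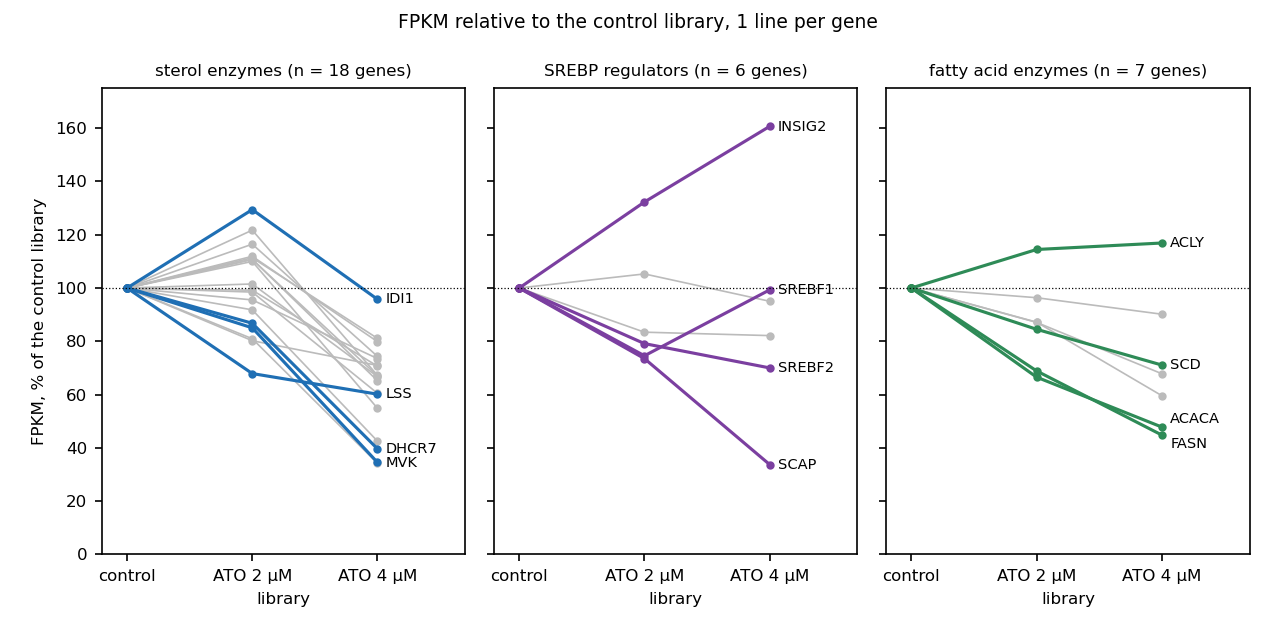
FPKM as a percentage of the control library for each gene, in the control, ATO 2 µM and ATO 4 µM libraries. Among sterol enzymes 9 lines lie above 100% at 2 µM and every line is below 100% at 4 µM, while FASN and ACACA are below 70% at 2 µM and below 50% at 4 µM. SCAP ends at 33.7%, INSIG2 at 161% and ACLY at 117%.

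The steps from acetyl-CoA to squalene are catalysed by 8 of the listed enzymes. ACAT2, the cytosolic thiolase that joins acetyl-CoA units, had 24.6 FPKM in control, 27.1 FPKM at 2 µM and 13.5 FPKM at 4 µM, where the log2 fold against control was -0.82. HMGCS1, the synthase of the next step, had 23.4, 23.2 and 16.5 FPKM in the same order. Both were thus near the control level at 2 µM and lower at 4 µM. In GENCODE 29 the exons of ACAT2 overlap those of SOD2, a mitochondrial superoxide dismutase gene, over 1141 bases and those of TCP1, a chaperonin gene, over 397 bases, both on the opposite strand. SOD2 had 3.42 FPKM in control, 3.16 FPKM at 2 µM and 2.18 FPKM at 4 µM. TCP1 had 70.6 FPKM in control, 90.1 FPKM at 2 µM and 75.9 FPKM at 4 µM, and without a stated use of strand the reads of these stretches cannot be told apart.

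The kinases that act one after the other on mevalonate stood out by the size of their difference. MVK, mevalonate kinase, had 3.45 FPKM in control, 2.94 FPKM at 2 µM and 1.19 FPKM at 4 µM, so that 34.5% of the control level was left at 4 µM. PMVK, phosphomevalonate kinase, had 19.2, 17.7 and 8.18 FPKM, 42.5% of control at 4 µM. For both most of the difference lay between the doses, with log2 folds of -0.84 and -1.02 at 4 µM against 2 µM. MMAB, a cobalamin enzyme gene whose exons overlap 306 bases of those of MVK on the opposite strand, had 4.79, 3.75 and 1.98 FPKM, a log2 fold of -0.96 at 4 µM against control.

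MVD, the decarboxylase that follows these kinases, had 7.14, 7.90 and 4.78 FPKM in control, at 2 µM and at 4 µM. IDI1, the isomerase of isopentenyl diphosphate, had 12.4, 16.1 and 11.9 FPKM, which is 129% of control at 2 µM and 95.8% at 4 µM. IDI1 was the sterol enzyme with the highest log2 fold in either comparison with control, at 0.35 and -0.06. FDPS, the farnesyl diphosphate synthase, had 30.97, 31.4 and 20.7 FPKM, and FDFT1 had 49.6, 48.9 and 30.003 FPKM. These last enzymes before sterols proper were within 2% of control at 2 µM and at 66.7% and 60.5% of it at 4 µM. Pseudogene rows named after FDPS reached at most 0.152 FPKM.

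From squalene to cholesterol 10 enzymes were listed and 9 considered. SQLE, the squalene epoxidase and a slow step of the pathway, had 29.4 FPKM in control, 28.1 FPKM at 2 µM and 21.6 FPKM at 4 µM. LSS, which folds the epoxide into lanosterol, had 7.87, 5.34 and 4.74 FPKM. For LSS most of the difference was thus already there at 2 µM (log2 fold -0.48), with -0.15 between the doses. SC5D, a late desaturase, was alike, with 20.9, 16.8 and 14.9 FPKM and log2 folds of -0.30 at 2 µM against control and -0.17 at 4 µM against 2 µM.

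The enzymes that strip lanosterol of its methyl groups were higher at 2 µM than in control by less than the smaller step. CYP51A1, the lanosterol demethylase, had 20.3, 22.7 and 16.2 FPKM in control, at 2 µM and at 4 µM. Another annotated protein-coding gene on the same strand overlaps 2844 of the exon bases of CYP51A1, 79.4% of them. No FPKM was matched to that gene, and how reads of the shared stretch were assigned is unknown. The values of CYP51A1, and its order of libraries, may therefore include reads of both genes. MSMO1, the methylsterol oxidase, had 17.9, 21.8 and 12.0 FPKM, and NSDHL, the dehydrogenase that works with it, had 12.8, 14.9 and 9.48 FPKM. HSD17B7, the ketone reductase of the same complex, was low throughout at 1.43, 1.59 and 0.933 FPKM. The pseudogene HSD17B7P2 had 0.616, 0.468 and 0.468 FPKM, so part of the reads of HSD17B7 may be shared with it. TM7SF2, a sterol reductase, had 1.26, 1.02 and 0.432 FPKM and was below the filter.

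EBP, the isomerase of the sterol ring, had 10.6 FPKM in control, 11.8 FPKM at 2 µM and 8.59 FPKM at 4 µM, at 4 µM the sterol enzyme nearest to control after IDI1. DHCR7, the reductase that completes cholesterol, had 13.1, 11.3 and 5.18 FPKM, 39.6% of control at 4 µM. It was the sterol enzyme with the lowest log2 fold at 4 µM against control, below all but 3.09% of considered rows. The 3 sterol enzymes lower by the size rule were thus MVK and PMVK before squalene and DHCR7 after it. The median log2 fold was -0.63 over the 8 steps up to squalene and -0.43 over the 9 considered steps after it. Summed over all 18 sterol enzymes the level was 306 FPKM in control, 311 FPKM at 2 µM and 201 FPKM at 4 µM.

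In log2 fold at 4 µM against control the regulators held both ends of the set, with SCAP lowest and INSIG2 highest, whereas at 2 µM against control ACACA (-0.55) was lowest and IDI1 (0.35) highest. SCAP had 7.79 FPKM in control, 5.73 FPKM at 2 µM and 2.63 FPKM at 4 µM, 33.7% of control at 4 µM. INSIG2, which also holds SCAP back, had 4.54, 6.002 and 7.29 FPKM, 161% of control at 4 µM. INSIG1, its partner and a classic SREBP target, had 9.95, 10.5 and 9.46 FPKM. INSIG1 thus stayed within 6% of the control in both ATO libraries. The ratio of SCAP to INSIG2 in FPKM was 1.72 in control, 0.954 at 2 µM and 0.361 at 4 µM. As these genes are the extremes of the set at 4 µM, a fall in their ratio there follows from the choice. The ratio of SCAP to INSIG1 was 0.783, 0.547 and 0.278 in the same order, and that of INSIG2 to INSIG1 was 0.456, 0.573 and 0.771. These are ratios of RNA, and whether more SCAP was held back was not tested.

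SREBF2 had 37.9 FPKM in control, 29.99 FPKM at 2 µM and 26.5 FPKM at 4 µM, with log2 folds of -0.33 and -0.50 against control. SREBF1 had 3.19, 2.38 and 3.16 FPKM, lower at 2 µM (log2 fold -0.31) and at the control level at 4 µM (-0.01). The exons of RAI1 overlap 556 bases of those of SREBF1 on the opposite strand, and RAI1 had 7.42, 6.10 and 6.55 FPKM. As use of strand was not stated, reads of that stretch cannot be told apart. The SREBF2 row was 11.9 times the SREBF1 row in control, 12.6 times at 2 µM and 8.38 times at 4 µM. STARD4, a carrier that moves sterol between membranes, had 22.04, 18.4 and 18.1 FPKM. Its antisense gene STARD4-AS1, which overlaps 124 of its exon bases, had 4.91, 6.75 and 2.21 FPKM.

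The fatty acid enzymes ranged in log2 fold at 4 µM against control between -1.13 for FASN and 0.22 for ACLY. FASN had 67.2 FPKM in control, 46.3 FPKM at 2 µM and 30.1 FPKM at 4 µM, with log2 folds of -0.53 and -1.13 against control. ACACA, the acetyl-CoA carboxylase that supplies FASN with malonyl-CoA, had 15.7, 10.5 and 7.51 FPKM, with -0.55 and -0.97, short of the size rule as deposited but past it with a pseudocount of 0.1 (-1.05) and after the GC and length correction (-1.09). ACLY, which feeds both, had 104, 119 and 122 FPKM. The ratio of FASN to ACLY in FPKM was 0.645 in control, 0.388 at 2 µM and 0.247 at 4 µM. FASN and ACLY are the extremes of the fatty acid enzymes at 4 µM, so a fall in their ratio there follows from the choice.

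Enzymes that modify fatty acids lay between these. SCD had 73.7 FPKM in control, 62.3 FPKM at 2 µM and 52.4 FPKM at 4 µM. ELOVL6, the elongase of palmitate, had 8.75, 8.43 and 7.89 FPKM, 90.2% of control at 4 µM. The desaturases of polyunsaturated fatty acids FADS1 and FADS2 are neighbours with overlapping exons on opposite strands. FADS1 had 21.8, 19.0 and 14.8 FPKM and FADS2 had 28.2, 24.6 and 16.8 FPKM, with log2 folds at 4 µM against control of -0.53 and -0.71. The summed level of the 7 fatty acid enzymes was 319.6 FPKM in control, 290.3 FPKM at 2 µM and 251 FPKM at 4 µM, which is 78.6% of control at 4 µM. Without ACLY the sums were 215, 171 and 129 FPKM, and 60.1% of control at 4 µM. Of the 7, ACLY alone was higher than control at 4 µM, so a lower share without it follows from the choice.

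Transcript length moved with the values at 2 µM and GC content with those at 4 µM. At 2 µM against control Spearman's rho between log2 fold and the length of the longest transcript was -0.60 across the 30 genes (Pearson -0.60) and -0.25 across 11363 considered rows. With length, rho at 4 µM against control was -0.03 across the 30 genes and 0.09 across the rows. At 4 µM against 2 µM it was 0.40 across the 30 genes, the opposite sign to that at 2 µM against control, and 0.32 across the rows. FASN and ACACA are the longest of the set at 8565 and 9961 bases. At 4 µM against control rho with GC content was -0.54 across the 30 genes (Pearson -0.54) and -0.06 across the rows, and SCAP, FASN, PMVK, DHCR7 and MVK had GC contents between 58.2% and 65.3%. Within that range also lay SREBF1 (62.8%), MVD (63.7%), LSS (58.3%) and FADS2 (58.6%), which did not pass the size rule and had log2 folds of -0.01, -0.49, -0.63 and -0.71. With GC content, rho across the 30 genes was -0.41 at 2 µM against control and -0.39 at 4 µM against 2 µM. Across the rows these were 0.01 and -0.09. Genes are not independent replicates, and all share the same libraries. After a correction for both properties the log2 folds of FASN and ACACA at 2 µM were -0.34 and -0.37, below the smaller step, and the medians of sterol and fatty acid enzymes were -0.05 and -0.18. At 4 µM the corrected values were -1.26 for SCAP, -1.19 for DHCR7, -1.11 for PMVK and FASN, -1.09 for ACACA, which then passed the size rule as a sixth gene, and -1.04 for MVK.

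**Figure D4:**
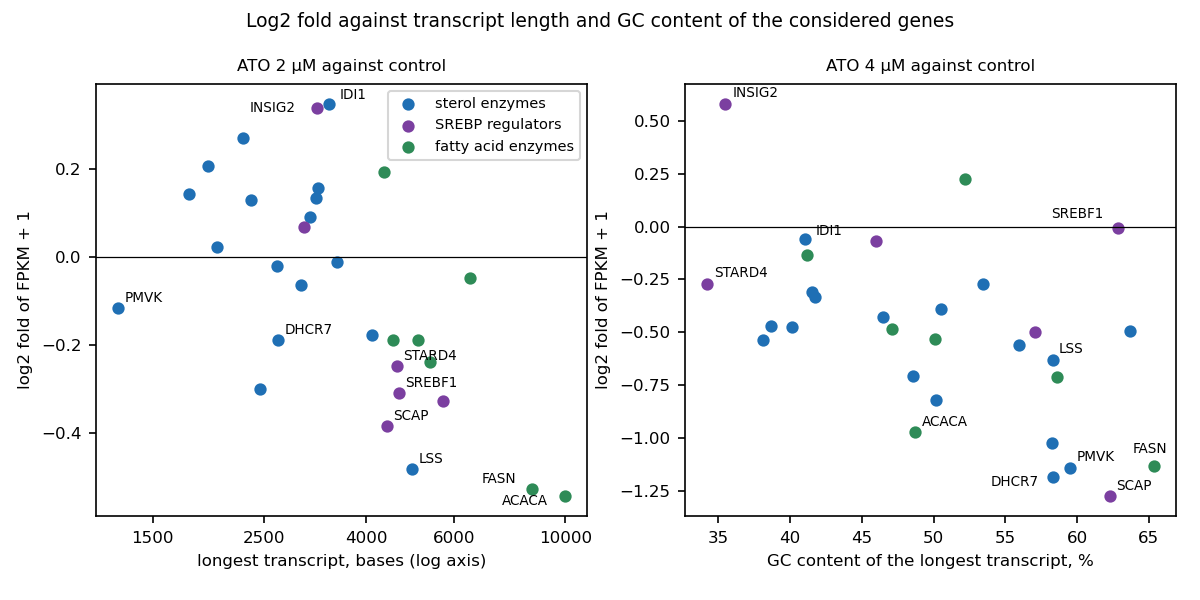
Log2 fold of FPKM + 1 of the 30 considered genes, at 2 µM against control by the length of the longest transcript in bases (log axis) and at 4 µM against control by its GC content in percent. The longest genes, FASN and ACACA, have the lowest folds at 2 µM, and the 5 genes past the size rule at 4 µM have GC contents of at least 58.2%, as do SREBF1, MVD, LSS and FADS2, which did not pass.

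Other genes of sterol handling were counted from lists that named 12 processing and synthesis genes and 13 storage, export and lysosomal genes. In the first list 0 of 12 passed the size rule at 4 µM against control, when 4.19% of all rows were higher and 5.27% lower by it. The median was -0.40, and 5 of 12 were lower by the smaller step, against 22.1% of all rows. Examples chosen after their values were seen were MBTPS1 (-0.84) and MBTPS2 (-0.74), the proteases that release SREBPs, and ERLIN1 (-0.82), an endoplasmic reticulum protein that holds SREBPs there. In the second list 9 genes were considered and the median was 0.22. By the size rule 0 of 9 were higher, against 4.19% of all rows. LIPA, the lysosomal lipase that frees cholesterol from its esters, was the 1 gene of 9 lower by it (-1.03), against 5.27%. LIPA had 9.45, 7.31 and 4.12 FPKM in control, at 2 µM and at 4 µM. By the smaller step 2 of 9 were higher, against 13.0% of all rows, and LIPA alone was lower, against 22.1%. The median of this second list thus lay above that of all rows, -0.13, and that of the processing list below it. ABCA1 and ABCG1, the cholesterol exporters listed, were below the filter, at no more than 0.199 and 0.0262 FPKM. The median therefore does not cover them.

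Beyond the 7 enzymes above, 18 of 25 other genes of fatty acid synthesis, elongation and activation were considered, with a median of 0.09 at 4 µM against control. By the size rule 2 of 18 were higher, against 4.19% of all rows, and 0 lower, against 5.27%. ME1, the malic enzyme that makes NADPH for lipid synthesis, had 6.84, 15.9 and 23.8 FPKM in control, at 2 µM and at 4 µM, a log2 fold of 1.66, and was also past the rule at 2 µM (1.11). FADS3, a relative of the FADS genes above, had 4.35, 8.12 and 12.1 FPKM (1.29), the opposite direction to FADS1 and FADS2.

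The adrenergic markers were lower beside the set, 8 of 10 by the size rule at 4 µM against control, against 5.27% of all rows, with a median of -1.35. So were the fibroblast-associated markers, 5 of the 5 considered against the same share, with summed levels over all 6 of 177 FPKM in control, 103 FPKM at 2 µM and 59.8 FPKM at 4 µM, while COL1A2, a defining member, lay between 0.391 and 0.597 FPKM. In these bulk libraries fewer cells of a kind and less RNA per cell cannot be told apart, and the part of these shifts in the lower lipid genes was not tested.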

How the data were processed

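Paired-end TruSeq libraries from 1.3 µg of total RNA were sequenced, per the labels' protocols, 1 library per group. The authors deposited FPKM per gene, per the file headers, while aligner, counter and annotation were not given in the sources used here. GRCm38 and mm10, which are mouse builds, stand in the submitters' processing notes, although the rows carry human symbols. Use of strand was not stated.

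Log2 ratios of FPKM + 1 were computed with Python 3.11.15 and pandas 2.3.3 over rows averaging 1 FPKM or more. Lists were described by counts and medians, with no test. The fold and call steps were tested on simulated data. Length and GC content came from the longest GENCODE 29 transcript of 11363 rows, and promoters from RefSeq. The correction was a quadratic regression on both. The members and lists were chosen with earlier results of these data known. All 31 genes were named, with genes of other lists past the size rule. Alternatives covered the pseudocount, filter, scaling, the GC and length correction and the rows kept. Some genes of these pathways are not reported here.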

Additional observations from a re-analysis of the deposited data

How the results depend on the processing

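No paired analysis was possible because each group has 1 library, and for the same reason no replicate could be left out. Of 108 recomputed counts and medians 95 stayed within 1.5 times or 0.1 on the log2 scale, though some medians near 0 changed sign. The sterol median at 2 µM against control, 0.02, was -0.018 with upper quartile scaling, -0.029 as TPM and -0.052 with the GC and length correction, and the regulator median at 4 µM against 2 µM, -0.08, was 0.0021 with upper quartile scaling and 0.0043 as TPM. Of 780 recomputed values of single genes 761 kept their side of the size rule and none past it changed sign. Changes of sign below the rule, such as that of IDI1 with median-of-ratios scaling, were not counted. Settings that only choose rows could not change a log2 fold. They gave 90 of the 780 values without a filter, 90 with only rows of ordinary gene symbols and 60 with the filter at 10 FPKM. The rows of ordinary symbols include all considered genes of the set, so its counts and medians could not change there either. At 4 µM against control the number of genes past the size rule was 5, against 1 with a pseudocount of 5 (FASN), 2 with a mean of at least 10 FPKM, which leaves 20 genes, 3 with median-of-ratios scaling, and 4 with upper quartile scaling. It was 6 with a pseudocount of 0.1 and with the GC and length correction, where ACACA passed too, and 6 as TPM, where TM7SF2 did. The median of the regulators, -0.17, was -0.38 with the filter at 10 FPKM, which kept only SREBF2 and STARD4 of them. With median-of-ratios scaling it was -0.026. At 4 µM against 2 µM the number past the rule was 1, against 4 with a pseudocount of 0.1, 2 as TPM and 0 with a pseudocount of 5, either scaling between libraries or the GC and length correction. With median-of-ratios scaling the medians there were 0.071 for regulators and -0.19 for fatty acid enzymes, against -0.08 and -0.34. Over all rows the rule took 1176 at 4 µM against control, 256 at 2 µM against control and 308 at 4 µM against 2 µM. The counts were 1949, 506 and 735 with a pseudocount of 0.1, 390, 61 and 77 with 5, 474, 103 and 134 with the filter at 10 FPKM, and 2586, 919 and 1069 as TPM, where both the weight of the added 1 and the rows kept differ (17056 in place of 12433). The share of rows past the rule that were higher was 44.3% at 4 µM against control against 60.1% with median-of-ratios scaling, 56.2% with a pseudocount of 5 and 54.9% with the filter at 10 FPKM. It was 56.3% at 2 µM against control, against 39.9% as TPM, 72.1% with a pseudocount of 5 and 70.9% with the filter at 10 FPKM. At 4 µM against 2 µM it was 46.1%, against 71.4% with median-of-ratios scaling, 60.4% with upper quartile scaling, 57.2% as TPM and 61.04% with a pseudocount of 5. The cause of the other shifts was not tested. Depth is unknown, and the log2 fold of the low gene HSD17B7 at 4 µM against control was -0.33, -0.57 with a pseudocount of 0.1 and -0.12 with 5, while that of MVK was -1.02, -1.46 and -0.45.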

Other observations

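Glycerolipid synthesis genes were found on both sides of the size rule at 4 µM against control, 1 higher and 2 lower among 14 considered, against 4.19% and 5.27% of all rows, and a median of -0.24. PCYT1A, the rate-limiting enzyme of phosphatidylcholine synthesis, had 11.1, 20.05 and 35.7 FPKM in control, at 2 µM and at 4 µM, a log2 fold of 1.60. AGPAT5, an acyltransferase of phosphatidic acid synthesis, had 16.2, 10.9 and 6.32 FPKM (-1.24), and GPAM, the mitochondrial acyltransferase that starts glycerolipid synthesis and a known SREBP1 target, had 19.2, 11.5 and 9.08 FPKM (-1.003). PCYT1A was thus higher at each dose while both acyltransferase genes were lower at each dose.

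Of 14 considered fatty acid oxidation genes 0 passed the size rule in either direction at 4 µM against control, when 4.19% of all rows were higher and 5.27% lower by it. Their median was -0.24, and 6 were lower by the smaller step, against 22.1% of all rows. HADHA, a subunit of the mitochondrial trifunctional protein named here after its value was seen, was the most abundant at 86.6 FPKM in control, 77.6 FPKM at 2 µM and 76.9 FPKM at 4 µM.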
